A study of Mus musculus with 22 samples.

Results

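The Hox genes of spinal level identity were followed as the 39 genes whose symbol is Hox with a cluster letter a, b, c or d and a number, among 24060 gene rows counted in each library. The Hoxa cluster gave 11 of them, the Hoxb cluster 10, and the Hoxc and Hoxd clusters 9 each. All came from the spinal cord of young adult female mice carrying mGFAP-Cre and RiboTag, a conditional allele that puts a hemagglutinin (HA) tag on ribosomes wherever Cre acts; here the mouse Gfap promoter drives Cre, so that astrocytes carry the tag. Every group, controls included, had both elements. STAT3-CKO SCI mice also carried floxed Stat3, and were taken 14 days after a severe crush spinal cord injury (SCI) at thoracic level 10 (n = 3). WT SCI mice had the same injury and time without the floxed allele (n = 4), and uninjured mice of the same sex and age had no injury (n = 4). From each animal the HA precipitate (HA IP, RNA on tagged ribosomes) and the flow-through (RNA left after precipitation) were sequenced, giving 22 libraries from 11 animals. The injured tissue was the central 3 mm of the lesion. No label gives the level and length of the uninjured cord, so a difference between injured and uninjured Hox levels cannot be told apart from a difference in the segment sampled.

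Hox genes encode homeodomain transcription factors that lie in 4 clusters, and their order along a cluster parallels their order of expression from head to tail in the embryo. Genes at the same position in different clusters form a paralog group; low-numbered groups mark the hindbrain and neck, and higher-numbered groups mark progressively more caudal levels. Cells of the adult spinal cord keep much of this regional pattern, which makes Hox transcripts a record of the level from which tissue was taken. The proteins bind DNA together with Pbx and Meis cofactors.

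The deposited counts of the 2 fractions were related in a way that touches every HA IP value. In each of the 11 animals the HA IP count was at or above the flow-through count of the same animal in all but 0 to 3 of the 24060 genes, whereas pairing a flow-through with the HA IP of another animal of its group left 109 to 12654 genes below. No Hox gene was below in any animal, and the Hox counts of a flow-through came to 9.80% to 29.7% of those in the HA IP of the same animal. Several sparse Hox genes had equal counts in both fractions, such as Hoxc11 with 6 and 6 in animal 42, Hoxd10 with 5 and 5 in animal 154 and Hoxc12 with 2 and 2 in animal 9843. Whether the HA IP columns include the flow-through reads is not given in the sources used here. HA IP values are given with the counts as deposited unless marked otherwise. The Hox comparisons were also run with the flow-through counts of the same animal subtracted, an alternative chosen after seeing the data.

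**Figure D1:**
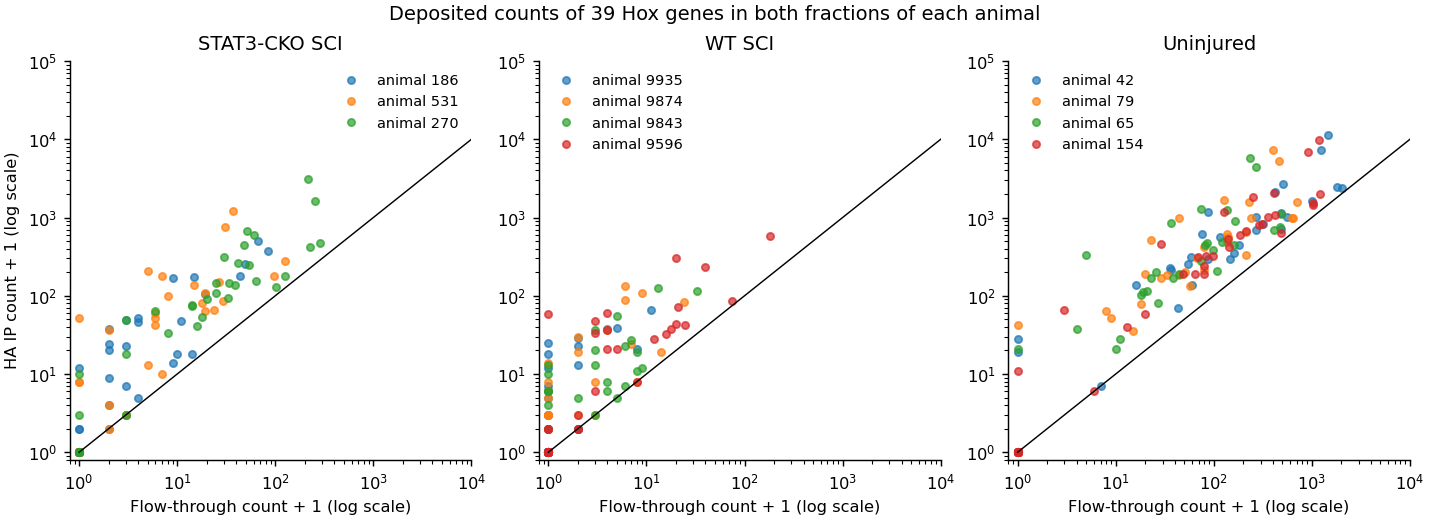
Deposited count + 1 of each of the 39 Hox genes in the HA IP (y axis, log scale) against the flow-through (x axis, log scale) of the same animal, one colour per animal, with the line of equal counts. No point lies under the line in any of the 11 animals, and Hoxc11 in animal 42 (6 and 6 counts) lies on it.

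The name ribosomal genes is used from here as a shorthand for Rn45s, Lars2 and Mir6236. It does not state that each of them encodes a part of the ribosome. Counts outside these genes set the depth for Hox genes. They numbered 2496641 to 17348247 in STAT3-CKO SCI, 620265 to 2691494 in WT SCI and 26934866 to 51571785 in uninjured HA IP libraries. In flow-through they numbered 460759 to 4022328 in STAT3-CKO SCI, 91626 to 615302 in WT SCI and 2858044 to 10140612 in uninjured libraries. Rn45s took 89.0% to 96.2% of the counts in WT SCI HA IP libraries, against 12.6% to 26.7% in uninjured ones. Gfap averaged over 4 libraries was called higher in uninjured HA IP than in flow-through (log2 difference 5.12 ± 0.22 SE, edgeR adjusted p = 7.52e-08). Stat3 stood at 8.65, 11.2 and 13.6 CPM in the STAT3-CKO SCI HA IP libraries, against 28.9 to 72.8 CPM in WT SCI and 13.5 to 17.2 CPM in uninjured ones. Levels below are CPM, read counts scaled to the library total with TMM factors over the 22 libraries, or per kilobase of transcript (RPKM) where genes are compared, and errors are SD over libraries unless marked SE.

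In uninjured cord, genes of paralog groups 1 to 10 were detected in both fractions and none of groups 11 to 13, with detection set at 3 counts in at least 2 libraries of a group. There 29 of the 39 genes passed in HA IP and 28 in flow-through; Hoxb1 made the difference, with 10 to 41 counts in each HA IP library and 0 in every flow-through. Hoxa11, Hoxa13, Hoxb13, Hoxc13, Hoxd12 and Hoxd13 had 0 counts in all 22 libraries. Hoxc11, Hoxc12, Hoxd10 and Hoxd11 had at most 6 counts in any library. In STAT3-CKO SCI, 25 genes passed in HA IP and 19 in flow-through; in WT SCI, 20 passed in HA IP and 12 in flow-through. No gene of group 1 passed in either fraction of either injured group, and none of groups 2 and 4 passed in WT SCI flow-through.

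Depth differed between these groups. At a common depth of 91626 counts outside the ribosomal genes, the expected number of Hox genes with a count was 14.7 to 15.3 in STAT3-CKO SCI HA IP, 9.93 to 13.9 in WT SCI HA IP and 17.7 to 18.3 in uninjured HA IP libraries. The flow-through ranges at that depth were 14.4 to 15.5 in STAT3-CKO SCI, 9 to 13.1 in WT SCI and 19.5 to 21.0 in uninjured cord. Within the uninjured cord the flow-through thus showed more Hox genes than the HA IP at equal depth, and the 2 ranges did not overlap. With flow-through counts subtracted, the HA IP ranges were 14.0 to 14.8 in STAT3-CKO SCI, 9.39 to 12.9 in WT SCI and 15.7 to 16.8 in uninjured cord. A gene at 0 counts in a WT SCI library was not detectable at that depth, which does not show that it was absent.

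**Figure D2:**
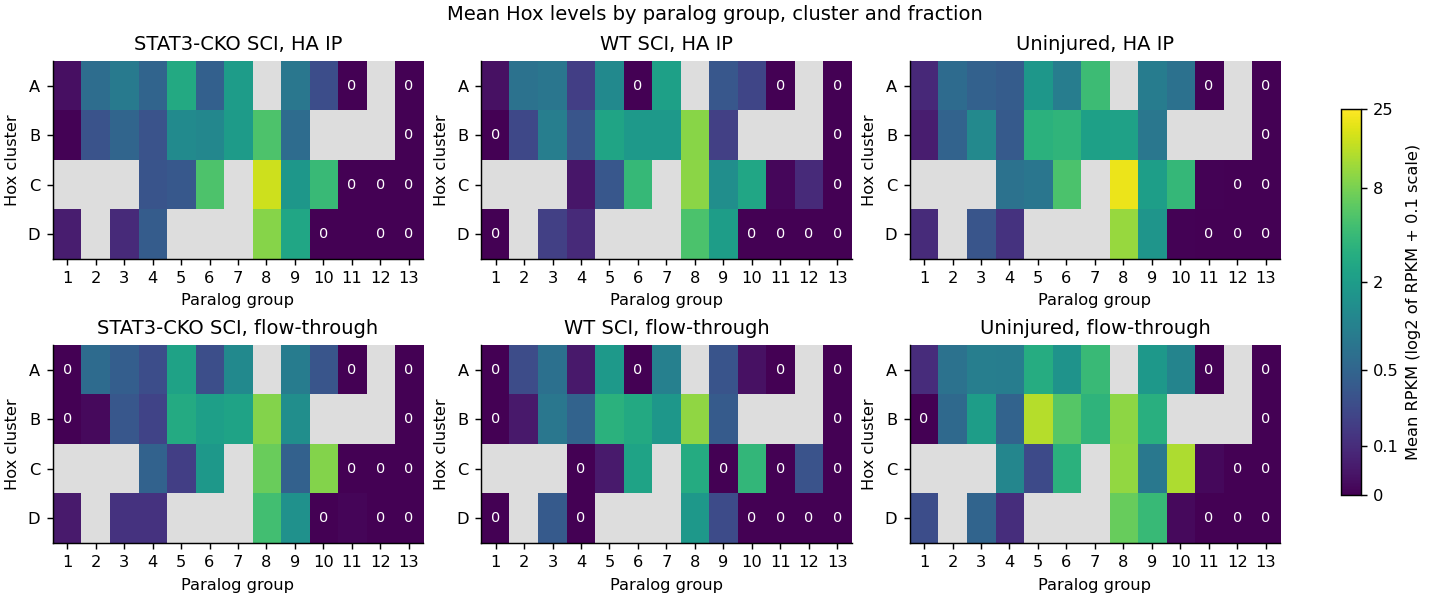
Mean RPKM (colour, log2 of RPKM + 0.1) of each Hox gene by paralog group (x axis) and cluster (y axis) in the 3 conditions, HA IP above and flow-through below; grey squares have no gene and 0 marks genes without a count. Groups 1 to 10 carry the signal in uninjured cord, with Hoxc8 the brightest square in uninjured HA IP (21.0 RPKM) and Hoxb5 in uninjured flow-through (13.4 RPKM).

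Paralog group 8, whose genes help set thoracic and brachial levels, held the largest part of the Hox signal. It made up 47.9% ± 0.669 of the summed Hox RPKM in uninjured HA IP and 28.7% ± 4.89 in uninjured flow-through (n = 4 each). After injury the share was 51.2% in STAT3-CKO SCI HA IP (range 49.5% to 54.1%) and 49.3% in WT SCI HA IP (range 38.3% to 57.9%). In flow-through it was 40.2% in STAT3-CKO SCI (range 33.2% to 53.3%) and 40.2% in WT SCI (range 35.4% to 44.6%). The ranges of the fractions overlapped in both injured groups. Group 5 held 8.26% ± 1.65 in uninjured HA IP and 17.9% ± 2.90 in flow-through, and group 10 held 6.43% ± 1.05 and 14.8% ± 3.61. With flow-through counts subtracted, the uninjured HA IP shares were 53.1% ± 1.52 for group 8, 5.53% ± 0.580 for group 5 and 4.22% ± 0.836 for group 10. Group 1, which acts in the hindbrain of the embryo, held 0.339% in HA IP and 0.397% in flow-through.

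The highest member of a paralog group in uninjured HA IP was more often from the Hoxc cluster than from any other. Hoxc8 led all Hox genes at 21.0 ± 1.34 RPKM, followed by Hoxd8 at 10.6 ± 1.28 RPKM and Hoxc6 at 5.11 ± 0.868 RPKM. Hoxa7 had 4.29 ± 0.249 RPKM and Hoxc10 3.90 ± 0.810 RPKM; these neighbours in the order, and Hoxc6 beside Hoxa7, lay within 1 SD of each other. The leading members of groups 1 to 4 were Hoxd1 at 0.0954, Hoxa2 at 0.583, Hoxb3 at 1.24 and Hoxc4 at 0.708 RPKM. The order in uninjured flow-through was another one: Hoxb5 had 13.4 ± 1.85 RPKM, Hoxc10 12.6 ± 3.08, Hoxc8 10.2 ± 2.84 and Hoxb8 9.66 ± 1.88, each within the spread of its neighbour. By cluster, Hoxc genes held 47.4% ± 1.15 of the Hox RPKM in HA IP and 30.5% ± 2.43 in flow-through, while Hoxb genes held 20.2% ± 0.989 in HA IP and 41.5% ± 2.22 in flow-through. After subtraction Hoxc8, Hoxd8, Hoxc6 and Hoxa7 remained the first 4 genes in uninjured HA IP, while Hoxc10 stood at 2.26 ± 0.687 RPKM, in place 7 instead of 5. The subtracted HA IP shares were 52.1% for Hoxc and 14.3% for Hoxb genes.

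The promoters of 3 genes are shown because 2 of them, Hoxb8 and Hoxd8, belong to the same paralog group yet stood on opposite sides of the HA IP and flow-through comparison, and Hoxd9 is the neighbour of Hoxd8 in its cluster and stood with Hoxb8. Each run covers 250 bases before to 50 after the RefSeq start on build GRCm38.p6, plus strand, with every CG dinucleotide in capitals. The Hoxb8 window is chr11:96281655-96281954, the Hoxd8 window chr2:74704365-74704664 and the Hoxd9 window chr2:74697513-74697812.
Hoxb8: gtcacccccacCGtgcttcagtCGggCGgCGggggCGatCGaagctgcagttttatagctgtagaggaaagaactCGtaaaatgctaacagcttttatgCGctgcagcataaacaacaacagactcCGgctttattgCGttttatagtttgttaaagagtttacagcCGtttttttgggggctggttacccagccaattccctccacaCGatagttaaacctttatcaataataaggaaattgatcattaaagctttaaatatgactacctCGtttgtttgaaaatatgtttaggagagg
Hoxd8: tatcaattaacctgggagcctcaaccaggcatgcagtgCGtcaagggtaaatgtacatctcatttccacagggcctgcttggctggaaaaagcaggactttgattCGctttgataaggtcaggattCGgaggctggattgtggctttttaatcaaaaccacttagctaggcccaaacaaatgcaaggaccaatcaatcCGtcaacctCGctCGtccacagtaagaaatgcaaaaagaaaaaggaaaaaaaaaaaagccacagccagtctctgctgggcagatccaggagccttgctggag
Hoxd9: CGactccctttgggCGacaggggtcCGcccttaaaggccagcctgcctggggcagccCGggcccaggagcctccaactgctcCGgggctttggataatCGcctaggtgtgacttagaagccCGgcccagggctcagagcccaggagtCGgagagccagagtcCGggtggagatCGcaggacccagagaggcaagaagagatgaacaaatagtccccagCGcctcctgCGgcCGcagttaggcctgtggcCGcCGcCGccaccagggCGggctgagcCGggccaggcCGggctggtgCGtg
The letters CG were found 13 times in the Hoxb8, 6 times in the Hoxd8 and 20 times in the Hoxd9 window; CG reads the same on both strands. Among all 32851 promoter windows of the table, 37.9%, 56.4% and 26.5% hold as many or more. A total of 22 of the 39 Hox genes had a window, with a median of 14.5 CG per window against 7 over all windows.

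In uninjured cord, HA IP and flow-through held nearly the same Hox genes, and a part of these genes differed in level between them. The comparison sets RNA enriched for astrocyte ribosomes against RNA left in the same tissue sample, and neither is pure, as the markers given after the Hox values show. Of the 28 Hox genes tested, 5 were called higher and 11 lower in HA IP (edgeR quasi-likelihood test, Benjamini-Hochberg adjusted p under 0.05 over 14312 genes). Over all genes, 26.4% were called higher and 24.2% lower, so the 5 higher calls fell short of the background rate and the 11 lower calls exceeded it. In either direction 16 of the 28 Hox genes were called, beside 7250 of 14312 genes. The median Hox log2 difference was -0.59, against 0.02 over all tested genes. In such bulk samples, fewer cells of a type and less RNA per cell cannot be told apart.

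The genes higher in HA IP were Hoxc5, Hoxc6, Hoxc8, Hoxc9 and Hoxd8, which pattern brachial to thoracic levels in the embryo. Hoxc8, at chr15:102990607-102994111 on mm10, had 37.1, 42.9, 38.8 and 38.4 CPM in the HA IP of animals 42, 79, 65 and 154, against 23.0, 16.9, 12.6 and 23.8 CPM in their flow-through. All 4 HA IP libraries lay above all 4 flow-through libraries, with a log2 difference of 1.13 ± 0.19 (SE, adjusted p = 0.000548). Hoxc9 had 3.89, 5.76, 5.74 and 4.53 CPM in HA IP, against 1.38, 1.803, 1.96 and 2.54 CPM in flow-through. These groups too were apart (log2 difference 1.47 ± 0.23 SE, adjusted p = 0.000302).

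Hoxd8, in the Hoxd cluster on chromosome 2, had 23.7, 30.9, 30.5 and 26.9 CPM in HA IP, against 19.6, 19.2, 14.6 and 18.5 CPM in flow-through. The lowest HA IP library was above the highest flow-through one (log2 difference 0.72 ± 0.14 SE, adjusted p = 0.00144). Hoxc5 had 2.03, 2.96, 2.25 and 1.76 CPM in HA IP, against 1.17, 0.922, 0.218 and 0.564 CPM in flow-through, a log2 difference of 1.67 ± 0.40 (SE, adjusted p = 0.00469). The Hoxc6 values were 6.85, 9.73, 8.68 and 7.05 CPM in HA IP, against 6.60, 5.28, 3.98 and 5.05 CPM in flow-through, apart by a narrow margin in animal 42 (log2 difference 0.70 ± 0.19 SE, adjusted p = 0.00929). Those 5 calls held when any 1 of the 8 libraries was left out. In a fit of all 22 libraries, which share 1 estimate of the spread, Hoxc8 alone of them was called (adjusted p = 0.0205). The adjusted p values there were 0.0549 for Hoxc9, 0.0843 for Hoxc5, 0.197 for Hoxd8 and 0.389 for Hoxc6. That fit called 1778 of 15142 genes higher.

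**Figure D3:**
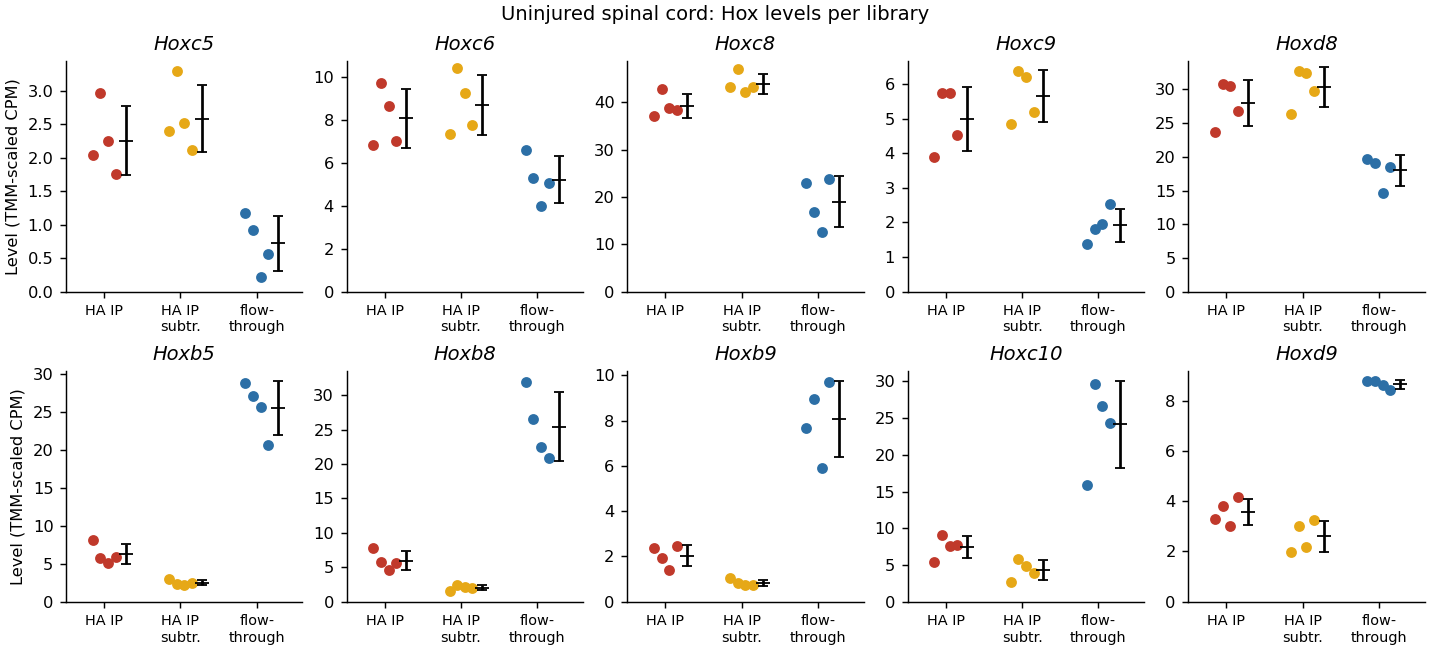
Level (TMM-scaled CPM, y axis from 0) of 10 Hox genes in each uninjured library: HA IP as deposited (red), HA IP with flow-through counts subtracted (yellow) and flow-through (blue), 4 libraries each, with mean ± SD in black. The upper row holds the 5 genes higher in HA IP, such as Hoxc8, and the lower row the 5 lower genes with the smallest p, such as Hoxb8, and no red point overlaps the blue points of its gene.

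Of the genes lower in HA IP, Hoxb5, Hoxb8 and Hoxb9 had the smallest p values. Hoxb8, at chr11:96281905-96285315, had 7.84, 5.79, 4.64 and 5.59 CPM in HA IP, against 31.97, 26.5, 22.5 and 20.8 CPM in flow-through. Every HA IP library was below every flow-through library, 3.99-fold lower in the fit (log2 difference -1.997 ± 0.21 SE, adjusted p = 1.83e-05). Hoxb5 had 8.17, 5.73, 5.14 and 5.92 CPM in HA IP, against 28.7, 27.0, 25.6 and 20.6 CPM in flow-through (log2 difference -1.93 ± 0.19 SE, adjusted p = 1.23e-05). Hoxb9, which marks lower thoracic levels, had 2.36, 1.94, 1.40 and 2.44 CPM in HA IP, against 7.66, 8.97, 5.89 and 9.70 CPM in flow-through (log2 difference -1.89 ± 0.24 SE, adjusted p = 6.44e-05).

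Hoxc10 went the other way from its Hoxc neighbours. This gene, which acts at lumbar levels, had 5.35, 9.08, 7.64 and 7.68 CPM in HA IP, against 16.0, 29.6, 26.6 and 24.3 CPM in flow-through (log2 difference -1.61 ± 0.21 SE, adjusted p = 0.000102). Hoxd9 had 3.31, 3.81, 3.00 and 4.15 CPM in HA IP, against 8.78, 8.80, 8.61 and 8.41 CPM in flow-through, with the flow-through libraries nearly equal (log2 difference -1.19 ± 0.16 SE, adjusted p = 0.000105). For both genes all HA IP libraries were below all flow-through libraries.

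The other 6 lower calls were in Hoxa and in anterior paralog groups. Hoxa9 averaged 1.799-fold lower (log2 difference -0.85, adjusted p = 0.00134), Hoxa3 1.97-fold (-0.98, adjusted p = 0.00585) and Hoxa4 2.21-fold (-1.14, adjusted p = 0.0198) in HA IP. Hoxa5, Hoxd1 and Hoxb3 had log2 differences of -0.66, -1.38 and -0.64. In the fit of all 22 libraries 4 of the 11 lower calls passed, Hoxb5, Hoxb8, Hoxb9 and Hoxc10. That fit called 5 of 28 Hox genes in either direction, beside 1778 higher and 1591 lower of 15142 genes. Over the 16 called genes, 12 kept their call in each of the 8 fits without 1 library. Hoxa4 lost it without HA IP 42, HA IP 65 or flow-through 79 (adjusted p up to 0.0762), Hoxa5 without flow-through 42 or 79 or HA IP 65 or 154 (up to 0.0705), Hoxb3 without any HA IP library or flow-through 65 (up to 0.110), and Hoxd1 without any flow-through library but 154 or any HA IP library but 42 (up to 0.0841). Part of the Hoxa3 and Hoxb3 exons, 29.5% and 50.9% of the transcript length, lies under exons of other genes, and without a stated strand setting their reads cannot be told apart.

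By cluster, the calls divided unevenly: 4 of 6 tested Hoxc genes were higher and 1 lower, 0 of 8 Hoxb genes were higher and 4 lower, and 0 of 9 Hoxa genes were higher and 4 lower. The Hoxd cluster held 1 higher and 2 lower of 5 tested. Position within the cluster did not line up with direction across clusters, since group 8 and group 9 each had members on both sides (Hoxc8 and Hoxd8 against Hoxb8; Hoxc9 against Hoxa9, Hoxb9 and Hoxd9).

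**Figure D4:**
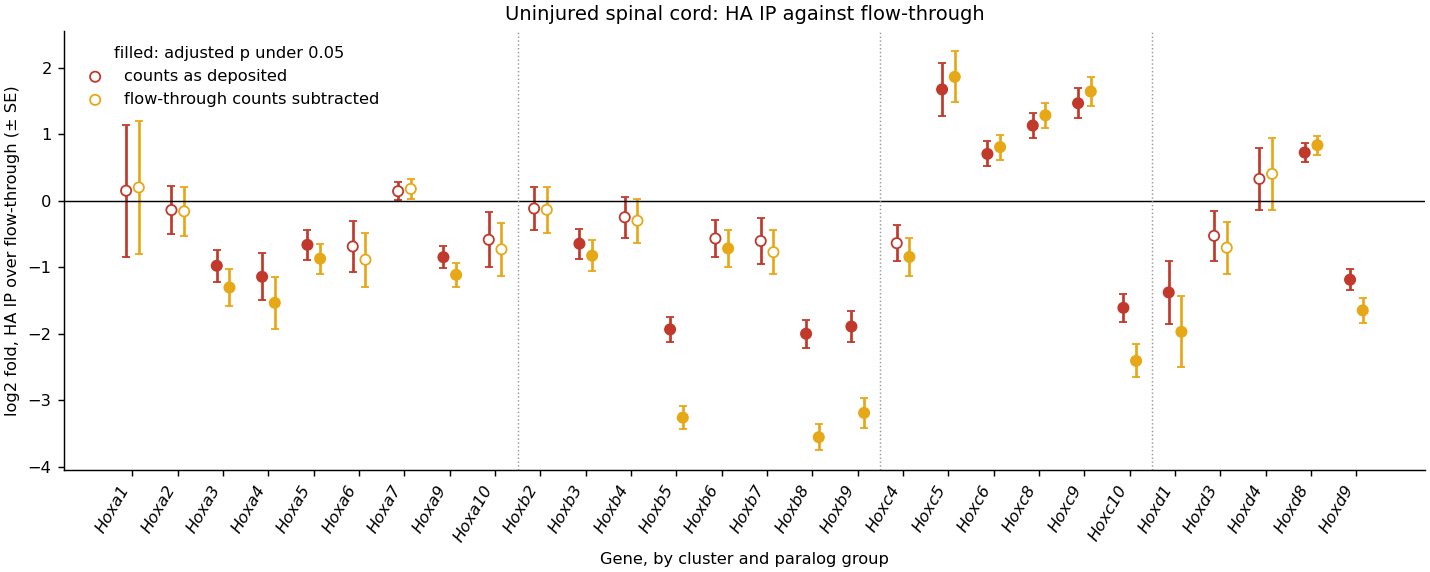
log2 fold of HA IP over flow-through (± SE) in uninjured cord for the 28 tested Hox genes, ordered by cluster and paralog group; red is counts as deposited, yellow has flow-through counts subtracted, and filled symbols have adjusted p under 0.05. Hoxc5, Hoxc6, Hoxc8, Hoxc9 and Hoxd8 lie above 0 in both, and Hoxb5, Hoxb8 and Hoxb9 lie farthest below 0, lower still after subtraction.

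Subtracting the flow-through counts widens differences by construction, since genes with a low ratio of HA IP to flow-through lose the largest part of their HA IP count, so the kept directions add no support. It gave 18 calls, 5 higher and 13 lower, against a background of 30.2% higher and 29.0% lower; Hoxc4 (-0.84) and Hoxb6 (-0.72) joined the 16 genes called as deposited. Subtracted HA IP levels of Hoxb8 were 1.63, 2.47, 2.07 and 2.04 CPM in animals 42, 79, 65 and 154, and its log2 difference was -3.55 ± 0.19 (SE, adjusted p = 2.44e-08). Hoxb5 and Hoxb9 came to -3.26 and -3.19, and Hoxc10 to -2.40. With the animal as a replicate block, the deposited counts gave 20 calls, 5 higher and 15 lower, beside backgrounds of 32.8% and 30.6%; the paired fit added Hoxb6, Hoxa6, Hoxc4 and Hoxb7 to the lower ones.

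Cell type markers moved with the fractions. In uninjured cord all 10 astrocyte markers were higher in HA IP, with sums of 4574 to 5596 CPM against 263.2 to 304.6 CPM in flow-through, and all 10 neuron markers were lower, with sums of 379.5 to 702.7 CPM against 2380 to 3124 CPM. All 6 oligodendrocyte markers and 5 of 7 tested microglia and macrophage markers were lower, while 5 of 5 markers of oligodendrocyte precursor cells (161.4 to 282.9 CPM summed in HA IP, against 60.6 to 91.0 CPM in flow-through) and 4 of 5 ependymal markers (8.93 to 11.1 CPM, against 2.22 to 6.54 CPM in flow-through) were higher in HA IP. None of these lists had a marker at 0 in either fraction. The part of these cell types in the Hox differences was not tested.

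After injury the same comparison rested on far fewer counts. In WT SCI only 10 Hox genes passed the filter and 0 were called by edgeR, against 6.25% of 8466 genes called in either direction. At an unadjusted p under 0.05 there was 1, beside 1741 of the 8466 genes. DESeq2 called 1 of 28, beside 978 of 15215 genes. Hoxc8 had 13.3, 10.95, 24.1 and 22.6 CPM in the HA IP of animals 9935, 9874, 9843 and 9596, against 4.99, 3.34, 7.63 and 5.54 CPM in their flow-through. The fractions did not overlap, and the log2 difference of 1.53 ± 0.56 (SE) had an adjusted p of 0.112. With the animal as a replicate block Hoxc8 was called (1.56, adjusted p = 0.0376), the only call, against backgrounds of 6.57% higher and 6.38% lower. After subtraction 0 of 8 were called with or without the block, beside a background of 12.2% without it. Within these 4 animals the deviations of the fractions from their group means then correlated at 0.0157 to 0.0437, against 0.395 to 0.469 as deposited. Hoxc9 did not pass the filter; its 94 counts over 4 HA IP libraries against 0 in the flow-through put it at least 7.60-fold higher in HA IP, using 3 counts over the group as the floor.

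In STAT3-CKO SCI, 22 Hox genes were tested and 0 called by edgeR with the counts as deposited, against 11.8% of all genes in either direction. At an unadjusted p under 0.05 there were 6, beside 3141 of 12659 genes. DESeq2 called 3 of 30, beside 1959 of 17189 genes. The paired fit with animal as a replicate block called 7, 4 of them higher (Hoxc8, Hoxc6, Hoxc9 and Hoxd8) and 3 lower (Hoxc10, Hoxb8 and Hoxb5), beside backgrounds of 13.4% and 11.1%. Within these animals the deviations of the fractions from their group means correlated at 0.319 to 0.536 as deposited but 0.0328 to 0.256 after subtraction. With subtraction and the block, 3 Hox genes were called higher and 4 lower, beside 1399 higher and 1372 lower of 12328 genes. Hoxc8 had 39.2, 22.8 and 30.0 CPM in the HA IP of animals 186, 531 and 270, against 23.4, 7.66 and 8.21 CPM in their flow-through. The fractions overlapped across animals but each animal had more in its HA IP (paired log2 difference 1.34 ± 0.27 SE, adjusted p = 1.17e-05). Hoxb8 had 29.2, 8.13 and 3.96 CPM in HA IP, against 29.9, 31.9 and 8.64 CPM in flow-through, nearly level in animal 186 and lower in HA IP in the other two (paired log2 difference -1.12, adjusted p = 0.000605).

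After subtraction and without the block, Hoxc8 (1.38), Hoxc9 (2.06) and Hoxc6 (1.77) were called higher in STAT3-CKO SCI HA IP, beside 8.82% higher and 8.23% lower over all genes. Each of these 3 calls was lost without HA IP 270, flow-through 531 or flow-through 270, with adjusted p values of 0.0630 to 0.205 in those fits. The Hoxc8 and Hoxc6 calls were also lost without HA IP 186, and the Hoxc9 call without flow-through 186 or HA IP 531.

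After injury, paralogs of group 8 moved in opposite directions in HA IP. Between WT SCI and uninjured HA IP libraries, 29 Hox genes were tested; Hoxb8 was called higher, and Hoxc4, Hoxa6, Hoxc8 and Hoxd8 lower. The backgrounds were 15.8% of 14764 genes higher and 10.9% lower. Hoxb8 had 23.3, 10.2, 22.03 and 43.2 CPM in WT SCI HA IP, against 7.84, 5.79, 4.64 and 5.59 CPM in uninjured HA IP. All injured libraries were above all uninjured ones, animal 9596 highest and 9874 lowest (log2 difference 2.07 ± 0.51 SE, adjusted p = 0.00604). Hoxc8 fell to 13.3, 10.95, 24.1 and 22.6 CPM in WT SCI, against 37.1, 42.9, 38.8 and 38.4 CPM in uninjured HA IP, with no overlap (log2 difference -1.13 ± 0.29 SE, adjusted p = 0.00846).

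Hoxd8 had 10.0, 16.7, 10.3 and 17.6 CPM in WT SCI HA IP, against 23.7, 30.9, 30.5 and 26.9 CPM in uninjured HA IP (log2 difference -1.0045 ± 0.32 SE, adjusted p = 0.0249). The groups did not overlap, but the call was lost without uninjured HA IP 79, 65 or 154 or WT SCI HA IP 9843, with adjusted p up to 0.0684. Hoxc4 had 0, 0.124, 0.192 and 0 CPM in WT SCI HA IP, against 1.47, 1.17, 1.37 and 1.61 CPM in uninjured HA IP (adjusted p = 0.00567). Hoxa6 had 0 counts in all 4 WT SCI HA IP libraries and 727 over the uninjured ones, which puts it at least 8.04-fold lower. The other 4 calls held in each of the 8 fits without 1 library.

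After subtraction the same 5 genes were called, beside 11.2% higher and 9.35% lower over all genes. Hoxb8 then had 22.6, 8.23, 21.8 and 39.3 CPM in WT SCI, against 1.63, 2.47, 2.07 and 2.04 CPM in uninjured HA IP, a log2 difference of 3.50 ± 0.65 (SE, adjusted p = 0.00116) that held without any 1 library. The other 4 calls were close to the threshold there: Hoxc4 lost it without any library but WT SCI 9843, Hoxc8 without any uninjured library or WT SCI 9935 or 9874, Hoxd8 without any uninjured library or WT SCI 9935 or 9843, and Hoxa6 without uninjured 42 or 65, with adjusted p values up to 0.121. The median Hox log2 difference was -0.97 as deposited and -0.87 with genes at 0 counts in a group set to their bound or, where none could be set, left out; over all genes it was 0.00. After subtraction the Hox median was -0.87, or -0.54 with bounds, against -0.08 over all genes.

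In the flow-through, injury came with lower levels of Hox genes across clusters. Of 26 tested, 13 were called lower and 0 higher between WT SCI and uninjured flow-through, against 14.3% lower and 16.7% higher over 12685 genes; the median Hox log2 difference was -1.54, or -1.47 with genes at 0 at their bound, against -0.09 over all genes. Hoxd9 fell to 0, 0.668, 0.636 and 0.875 CPM in WT SCI flow-through, against 8.78, 8.80, 8.61 and 8.41 CPM in uninjured flow-through. These WT SCI values were 0, 1, 1 and 3 counts, so the size of the difference is loosely set. The groups did not overlap, and the p was the smallest of the 13 (log2 difference -3.45 ± 0.64 SE, adjusted p = 0.000169). Hoxc10 had 11.6, 8.68, 1.27 and 7.0035 CPM in WT SCI flow-through, against 16.0, 29.6, 26.6 and 24.3 CPM in uninjured flow-through, also apart (log2 difference -1.67 ± 0.43 SE, adjusted p = 0.00459).

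Hoxb9 had 0, 0, 1.91 and 2.04 CPM in WT SCI flow-through, against 7.66, 8.97, 5.89 and 9.70 CPM in uninjured flow-through (log2 difference -2.43 ± 0.63 SE, adjusted p = 0.00433). Hoxc8 had 4.99, 3.34, 7.63 and 5.54 CPM, against 23.0, 16.9, 12.6 and 23.8 CPM in uninjured flow-through, with no overlap (log2 difference -1.60 ± 0.44 SE, adjusted p = 0.00641). Hoxd8 had 1.66, 3.34, 2.54 and 11.4 CPM, against 19.6, 19.2, 14.6 and 18.5 CPM (log2 difference -1.46 ± 0.44 SE, adjusted p = 0.0129). Hoxc4, Hoxc9 and Hoxa6 had 0 counts in the 4 WT SCI flow-through libraries and were at least 6.09-fold, 4.46-fold and 3.33-fold lower. Hoxa9, Hoxa7 and Hoxb5 had log2 differences of -2.13, -1.77 and -1.48. Hoxa10 and Hoxa4 were called too, but each had a single count in the WT SCI flow-through, in animal 9596, so no fold is given for them.

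Of the 13 calls, 9 held in each fit without 1 library. Hoxa4 was lost without any library but uninjured 42 (adjusted p up to 0.101), and Hoxb5 without uninjured 42, 79 or 65 or WT SCI 9935, 9874 or 9843 (up to 0.119). Hoxa7 was lost without uninjured 79 or 154 or WT SCI 9843 or 9596 (up to 0.0964), and Hoxa6 without WT SCI 9874, 9843 or 9596 (up to 0.0866). Hoxb5 had 1.66, 0.668, 1.27 and 21.6 CPM in the WT SCI flow-through, so that animal 9596 alone overlapped the uninjured libraries. Without it the log2 difference was -4.33, resting on 1, 1 and 2 counts in the remaining WT SCI libraries. Hoxb8 was not called in this fraction: it had 16.6, 15.4, 20.3 and 52.2 CPM in WT SCI flow-through, against 31.97, 26.5, 22.5 and 20.8 CPM in uninjured flow-through. Thinned to equal depth, only 11 Hox genes passed the filter and 1 was called lower, beside 687 lower of 6829 genes. In HA IP, 1 of 22 was then called higher and 2 lower, beside 1624 higher and 1042 lower of 11555 genes. The lower calls of both fractions thus lay near the share over all genes at that depth.

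Neuron and microglia markers moved with injury in both fractions: 6 of 10 neuron markers were lower in HA IP and 9 of 10 in flow-through, and 7 of 8 microglia and macrophage markers were higher in each. Neuron markers summed to 73.3 to 148.4 CPM in WT SCI HA IP, against 379.5 to 702.7 CPM in uninjured HA IP, and to 213.6 to 466.3 CPM in WT SCI flow-through, against 2380 to 3124 CPM in uninjured flow-through. Microglia and macrophage markers summed to 438.3 to 1975 CPM in WT SCI HA IP, against 8.67 to 21.1 CPM in uninjured HA IP, and to 1612 to 5991 CPM in WT SCI flow-through, against 25.9 to 50.7 CPM in uninjured flow-through. In HA IP all 6 oligodendrocyte markers were higher, summing to 6184 to 9161 CPM in WT SCI, against 1467 to 1941 CPM in uninjured HA IP. All 5 markers of oligodendrocyte precursor cells were higher there too, at 489.6 to 655.9 CPM in WT SCI, against 161.4 to 282.9 CPM in uninjured HA IP. Of 10 astrocyte markers, 1 was higher and 5 lower in WT SCI HA IP, with sums of 3514 to 6127 CPM, against 4574 to 5596 CPM in uninjured HA IP. The part of these cell types in the Hox changes was not tested.

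**Figure D5:**
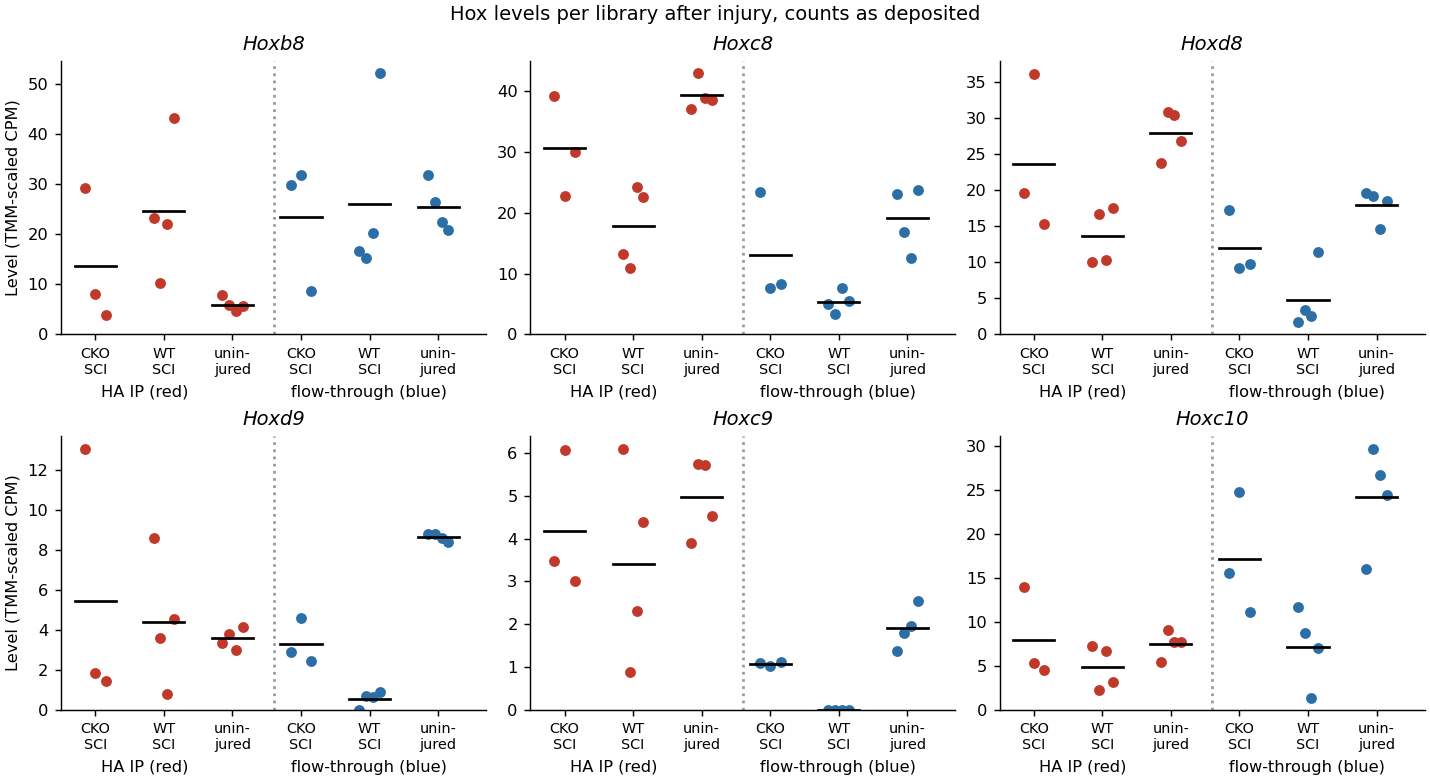
Level (TMM-scaled CPM, counts as deposited, y axis from 0) of 6 Hox genes in each library of STAT3-CKO SCI, WT SCI and uninjured mice, HA IP in red to the left and flow-through in blue to the right; bars are means. Hoxb8 is higher in WT SCI HA IP (10.2 to 43.2 CPM) than in uninjured HA IP (4.64 to 7.84 CPM). Hoxd9 is lower in WT SCI flow-through (at most 0.875 CPM, or 3 counts) than in uninjured flow-through (8.41 to 8.80 CPM).

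The injury effect itself differed between the fractions for a few genes, and for those called the HA IP effect was above the flow-through effect. The fit over the 22 libraries, which uses the same libraries as the comparisons above, called 2 of 28 Hox genes as deposited, beside 2.67% higher and 2.03% lower over 15142 genes. Hoxd9 had 8.61, 3.61, 0.766 and 4.53 CPM in WT SCI HA IP, against 3.31, 3.81, 3.00 and 4.15 CPM in uninjured HA IP, so that those groups overlapped. Its flow-through groups, given above, did not, with a difference of effects of 3.92 ± 1.02 (log2, SE, adjusted p = 0.0202). The Hoxd9 counts in WT SCI flow-through were only 0, 1, 1 and 3, so that size is loosely set. Hoxc9 was called with an adjusted p of 0.0482; its WT SCI flow-through was at 0 counts, so no size is given. The Hoxc9 call was lost without any 1 animal but WT SCI 9874, and the Hoxd9 call without uninjured animal 79 or 65 or WT SCI animal 9935 or 9596 (adjusted p up to 0.177 for Hoxc9 and 0.0682 for Hoxd9).

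After subtraction Hoxb8 joined them. Its injury effect was 3.48 ± 0.76 higher in HA IP than in flow-through (log2, SE, adjusted p = 0.00260), and Hoxd9 and Hoxc9 had adjusted p values of 0.00569 and 0.0235, beside 6.05% higher and 4.22% lower over all genes. With the animal as a replicate block and the counts as deposited, Hoxb8 was called as well (1.98 ± 0.37 SE, adjusted p = 0.00160). That made 3 calls in all, beside 1158 higher and 776 lower of 15142 genes. The median Hox difference of effects was 1.08, against 0.26 over all genes; with RLE scaling these were 0.90 and 0.07, and all genes gave 258 higher and 405 lower calls, against 405 and 308 with TMM. Leaving out animals was not repeated on the subtracted counts.

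The effect of STAT3 deletion in astrocytes on Hox levels was not past the threshold for any gene. Between STAT3-CKO SCI and WT SCI, 0 of 29 Hox genes were called in HA IP by edgeR, against 1.16% of all genes. After subtraction 0 of 29 were called, against 1.24%, and DESeq2 also called 0. At an unadjusted p under 0.05, edgeR gave 4, beside 2422 of 14764 genes, and DESeq2 5, beside 2937 of 18813. In flow-through 0 of 26 were called, against 0.118% of all genes. There 7 had an unadjusted p under 0.05 with each tool, beside 1665 of 12685 genes in edgeR and 1956 of 17905 in DESeq2. Hoxb8 spread from 3.96 to 29.2 CPM over the 3 STAT3-CKO SCI HA IP libraries and from 10.2 to 43.2 CPM over the 4 WT SCI ones. Hoxc8 had 39.2, 22.8 and 30.0 CPM in STAT3-CKO SCI HA IP, against 13.3, 10.95, 24.1 and 22.6 CPM in WT SCI HA IP; the groups overlapped in 1 library (log2 difference 0.77 ± 0.31 SE, adjusted p = 0.227). Hoxd9 in flow-through had 2.88, 4.59 and 2.43 CPM in STAT3-CKO SCI, against at most 0.875 CPM (3 counts) in WT SCI, apart but with an edgeR adjusted p of 0.195. Hoxa6 had 1, 7 and 91 counts in the HA IP of STAT3-CKO SCI animals 186, 531 and 270, and 0 in all 4 WT SCI ones (adjusted p = 0.129); nearly all of its counts came from animal 270. The difference of the STAT3 effect between the fractions was called for 0 of 28, against 0.0264% over all genes, or 0.107% after subtraction. At an unadjusted p under 0.05 there was 1 with edgeR, beside 932 of 15142 genes, and 1 with DESeq2, beside 1121 of 18814.

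Against uninjured cord, STAT3-CKO SCI showed fewer Hox calls than WT SCI; whether the numbers differ beyond the smaller group and its other depth was not tested, and both comparisons share the uninjured libraries. In HA IP DESeq2 called 1 of 32, beside 2363 of 18813 genes. By edgeR 0 of 29 were called in HA IP, against 9.78% of all genes. At an unadjusted p under 0.05 edgeR gave 3, beside 3356 of 14764 genes. The median Hox log2 difference there was -0.35, against 0.00 over all genes, and -0.27 against -0.01 after subtraction. After subtraction Hoxb8 was called higher (27.7, 4.75 and 2.39 CPM in STAT3-CKO SCI, against 1.63, 2.47, 2.07 and 2.04 CPM in uninjured HA IP; log2 difference 2.49 ± 0.65 SE, adjusted p = 0.0287), beside 4.62% higher and 1.29% lower over all genes. That call rested on animal 186, with an adjusted p of 0.550 and a log2 difference of 0.80 without it, and was also lost without any 1 of the 4 uninjured libraries (adjusted p up to 0.0949).

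In flow-through Hoxb5 and Hoxb2 were called lower of 26 tested, against 3.53% lower and 10.4% higher over all genes; with RLE scaling 3 Hox genes were called, and all genes gave 1135 higher and 677 lower calls, against 1321 and 448 with TMM. The median Hox log2 difference was -1.05, against -0.0002 over all genes. Fitted differences were below 0 for 24 of the 26, as many as between WT SCI and uninjured flow-through (24 of 26). Hoxb5 had 4.69, 6.63 and 4.86 CPM in STAT3-CKO SCI, against 28.7, 27.0, 25.6 and 20.6 CPM in uninjured flow-through, with no overlap (log2 difference -2.06 ± 0.58 SE, adjusted p = 0.0155). Hoxb2 had 0, 0 and 0.0771 CPM, against 0.570, 1.17, 0.981 and 0.966 CPM in uninjured flow-through (adjusted p = 0.0212). Both calls were lost without any 1 of the 3 STAT3-CKO SCI libraries, with adjusted p of 0.0527 to 0.0748 for Hoxb5 and 0.0798 to 0.101 for Hoxb2. The exons of Hoxb2 lie for 58.5% of their length under an antisense gene, Hoxb3os.

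Genes that act with or upstream of Hox genes were measured in the same libraries, where 26.4% of all genes were higher and 24.2% lower in uninjured HA IP. Of 9 Hox cofactor genes tested in uninjured cord, 2 were higher in HA IP, among them Meis1 (0.61 ± 0.20 SE), and 6 lower, led by Pbx3 (-1.57 ± 0.12 SE, adjusted p = 2.80e-06) and Pbx2 (-1.05 ± 0.19 SE). The Cdx genes, which switch on posterior Hox genes in the embryo, had 0 counts in all 22 libraries for all 3 members. Of 11 tested retinoic acid pathway genes, 2 were higher, among them Aldh1a1, a retinoic acid synthesising enzyme (4.72 ± 0.16 SE), and 2 lower (Crabp1, -2.28, and Cyp26b1, -1.28). Of 19 Polycomb and trithorax regulators, which keep Hox genes silent or active, 4 were higher, led by Eed (0.94) and Suz12 (0.98), and 3 lower, led by Ezh1 (-0.41) and Pcgf2 (-0.96), neither above the share over all genes. After subtraction the counts were 2 higher and 6 lower cofactors, 3 and 3 retinoic acid genes, and 4 and 4 regulators.

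After injury the same lists moved in part, beside 15.8% of all genes higher and 10.9% lower in HA IP. Between WT SCI and uninjured HA IP, Pbx2 rose (1.501 ± 0.49 SE) and Meis2 fell by 1.74 on the log2 scale, the only 2 calls of 9 cofactors, and after subtraction the Meis2 call was lost. In flow-through Meis2 (-2.54) and Pbx4 (-3.61) were among 3 lower calls. Of 12 tested retinoic acid pathway genes, 3 rose and 1 fell in HA IP (2 and 1 of 11 after subtraction), and of 10 in flow-through 2 rose. Of 19 Polycomb and trithorax regulators, 4 rose in HA IP, led by Kdm6b (2.71 ± 0.55 SE), an H3K27 demethylase gene, and Phc2 (1.73), and 2 fell, Rnf2 (-3.15) and Bmi1 (-1.41); these shares lie near those over all genes, and after subtraction 3 rose and 1, Rnf2, fell. Forebrain, midbrain and hindbrain identity genes, listed to check that the tissue was spinal, had few counts: 4 of 14 had 0 in all 22 libraries, and 4 were tested in uninjured cord, where 2 were lower in HA IP, among them En1 (-2.10). Between WT SCI and uninjured HA IP, 2 of 4 tested genes of that list were higher, 1 after subtraction.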

How the data were processed

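Libraries were made from RNA of the HA IP and flow-through of each animal with amplified cDNA and paired-end sequencing, per the labels' protocols. The authors deposited a table of whole-number read counts per gene for each fraction; 124 further per-sample columns of those tables were not used. CASAVA 1.8.2, edgeR and build mm10 are named in the submitters' processing notes; which aligner, counter and strand setting were applied is not given in the sources used here. The members and gene lists were chosen with earlier results of these data known. Per-library values and full statistics were given for up to 8 called members per direction and comparison with the smallest p and for the member with the highest RPKM of each detected paralog group; of the other lists, up to 2 called members per direction were named, except a few genes that are not reported here.

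Counts were tested with edgeR 4.0.16 (R 4.3.3; TMM scaling, low-count filter, quasi-likelihood test, Benjamini-Hochberg adjustment over all genes tested). HA IP was compared with flow-through within each condition, conditions were compared within each fraction over its 3 groups, and differences of effects were fitted over the 22 libraries. Alternatives were DESeq2 1.42.0, RLE scaling, no filter, ribosomal genes left out, counts thinned to equal depth, other sets of libraries, each library left out, and the animal as a replicate block. Subtraction of flow-through counts was added after seeing the data. Both fractions come from the same animal, which pairs them; their deviations from the group means correlated at 0.319 to 0.679 as deposited and 0.0157 to 0.267 after subtraction. Transcript lengths and exon overlaps came from GENCODE on GRCm38, and promoters from RefSeq on GRCm38.p6. Total counts were 31292491 to 59337089 in HA IP and 3898755 to 11242654 in flow-through libraries. Reads carry no molecular identifiers, so bounds from 3 counts cover counting error only. The fitting code was tested on simulated data.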

Additional observations from a re-analysis of the deposited data

Results flagged for a closer look

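Of 92 groups of 4 libraries checked gene by gene, 8 held a library far from the other 3; chance gives about 1 in 20 groups. In WT SCI flow-through, animal 9596 was high for Hoxb8 (52.2 CPM, others 15.4 to 20.3) and Hoxb5 (21.6 CPM, others 0.668 to 1.66). In WT SCI HA IP, animal 9935 was high for Hoxa10 (1.79 CPM, others 0 to 0.249) and Hoxb2 (1.44 CPM, or 4 counts, others 0 to 0.0755), and animal 9874 was high for Hoxa7 (13.2 CPM, others 0.717 to 2.72). In uninjured HA IP, animal 42 was low for Hoxa3 (0.971 CPM, others 1.23 to 1.27). The same animal alone had Hoxc11 counts among uninjured mice, at 0.0197 CPM in HA IP and 0.0949 CPM in flow-through, 6 counts in each.

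The injury effect differed between HA IP and flow-through in edgeR's test of the difference itself for Hoxd9 (adjusted p = 0.0202 as deposited and 0.00569 after subtraction) and Hoxc9 (adjusted p = 0.0482 and 0.0235). After subtraction it also differed for Hoxb8 (adjusted p = 0.00260).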

How the results depend on the processing

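Only single-gene results called with the deposited counts were followed, so new calls are not in this tally. None changed direction in an alternative run that tested the gene, where 481 still passed the threshold and 92 no longer did. Genes that a run did not test are left out. With RLE scaling 37 stayed and 1 was lost, after thinning 20 stayed and 9 were lost, and with ribosomal genes left out 33 stayed and 0 were lost. Counts of called Hox genes that moved by over 1.5 times follow, and the cause was not tested. Calls over all genes in the same fit stand in square brackets, except for fits without 1 library or animal. For HA IP against flow-through in uninjured cord, fitting all 22 libraries gave 5 calls (1 higher, 4 lower) [3369 of 15142]. The fit used above gave 16 (5 higher, 11 lower) [7250 of 14312]. In WT SCI the fit used above gave 0 [529 of 8466]. DESeq2 gave 1 [978 of 15215], the replicate block 1 [1096 of 8466] and all 22 libraries 4 [1706 of 15142]. Without 1 library the subtracted counts gave 0 to 1, and thinning left no Hox gene to test. In STAT3-CKO SCI, instead of 0 [1496 of 12659], DESeq2 gave 3 [1959 of 17189] and no filter 2 [1670 of 17189]. The replicate block gave 7 [3105 of 12659], all 22 libraries 1 [1157 of 15142] and leaving out 1 library 0 to 2. Subtraction gave 3 [2101 of 12328], or 0 to 4 without 1 library. Subtraction with the replicate block gave 7 [2771 of 12328]. For WT SCI against uninjured HA IP, thinning gave 3 [2666 of 11555] instead of 5 [3938 of 14764]. Subtracted HA IP counts gave 1 to 5 without 1 library. In flow-through, thinning gave 1 [1504 of 6829] instead of 13 [3933 of 12685]. For STAT3-CKO SCI against uninjured HA IP, instead of 0 [1444 of 14764], DESeq2 gave 1 [2363 of 18813] and a fit of 2 groups 4 [3585 of 14700]. Leaving out 1 library gave 0 to 1, and subtraction 1 [842 of 14241], or 0 to 2 without 1 library. In flow-through, instead of 2 [1769 of 12685], DESeq2 gave 4 [2646 of 17905] and thinning 1 [523 of 6829]. A fit of 2 groups gave 5 there [2751 of 12583] and leaving out 1 library 0 to 2. The injury effect between fractions gave 1 call with RLE scaling [663 of 15142], 1 with DESeq2 [1191 of 18814] and 1 with no filter [645 of 18814]. After thinning it gave 0 [245 of 8890] and without 1 animal 0 to 2, instead of 2 [713 of 15142].

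With a minimum of 10 counts, 3 Hox genes were detected in WT SCI flow-through instead of 12. Summed Hox CPM outside the ribosomal genes without TMM was 676.5 in STAT3-CKO SCI, 484 in WT SCI and 808 in uninjured HA IP, and 637 in STAT3-CKO SCI, 419 in WT SCI and 1197.5 in uninjured flow-through, against 124.6, 102 and 143, and 105, 74.1 and 189 with TMM. The fit with a replicate block changed no call other than those given. Subtraction was chosen after seeing the data. Depth limits the WT SCI flow-through most.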

Other observations

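Noncoding genes of the Hox clusters gave few counts. Of 11 found in the files, 3 had 0 counts in all 22 libraries (Hotair, Hottip and Mir615, chosen for naming after their values were seen). Mir196b, a microRNA gene of the Hoxa cluster, had 253 counts over uninjured HA IP and 40 over uninjured flow-through libraries, and 0 in both WT SCI fractions. Its uninjured means were 0.298 CPM in HA IP and 0.287 CPM in flow-through. In WT SCI, 1 count stands for 0.0755 to 0.359 CPM in HA IP and 0.292 to 1.66 CPM in flow-through libraries, so the 0 counts do not show absence. Mir10b, of the Hoxd cluster, had 51 counts over uninjured HA IP and 17 over uninjured flow-through libraries.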
